A study of Homo sapiens with 18 samples.

Results

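Antiviral restriction factors were followed as a set of 10 genes: MX1, RSAD2, CMPK2, BST2, XAF1, SAMD9, PARP9, PARP14, DTX3L and EIF2AK2. They were chosen by symbol, and each had exactly 1 row with that single symbol on the array, out of 22357 genes with such a row. Of the 10, 9 passed a filter on low values and were tested among 16111 genes in all. PARP14 lay below its own array's median on all 18 arrays and was not tested.

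Transcript levels came from Affymetrix Human Gene 2.1 ST arrays of HEK293 cells, a human embryonic kidney line, made to overexpress the murine flagellin receptor TLR5. The cells received isolated flagellin of E. coli Nissle (EcN), a probiotic strain, isolated flagellin of Salmonella Typhimurium SL1344 (ST), or a mock control. RNA was taken after 60 or 120 min, which gave 6 groups with 3 arrays each, lettered A, B and C. All groups, mock included, carried the receptor and had grown in SILAC media, which differ in the isotopes (heavy, medium or light) of 2 amino acids. No label used here gives the medium of an array, so medium and flagellin cannot be told apart. The labels call the letters biological replicates without saying whether each was a separate culture, so the p-values measure the spread between these arrays, which may be technical, and the number of arrays limits the precision. Levels are given on the log2 scale of the deposited table, and a difference is a log2 fold change with its SE unless a level is named. In bulk RNA, a higher share of responding cells and more RNA per cell cannot be told apart.

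Some arrays stood apart or went against their labels. The description field of the 6 ST arrays names mock, while their title, source name and treatment name ST, and the title was followed. NFKBIA, which NF-kB induces and which encodes its inhibitor, had levels of 10.15 to 10.85 on the 4 flagellin arrays lettered C and on mock 120 min replicate A, against 8.09 to 8.82 on the other 13 arrays. TNFAIP3 and CXCL8, also induced by NF-kB, were high on the same 5 arrays, with CXCL8 at 5.62 to 8.76 against 2.16 to 2.90. The library labelled mock 120 min A thus had these transcripts at levels seen elsewhere on flagellin arrays alone, and whether samples were exchanged was not tested. Differences of the tested members from mock at 120 min are therefore given with and without it. Of 8 markers of HEK293 and epithelial character, 7 lay above the array median on all 18 arrays. NEFM did so on 5 arrays. Of 8 leukocyte markers, PTPRC, MS4A1, LYZ and ITGAM were above it on no array, CD3E on 1, and CD14 (2.34 to 2.93), CD68 (8.89 to 9.46) and NCAM1 (6.57 to 6.95) on all 18. The summed log2 level of the 8 ran from 25.9 to 27.6 on EcN and ST arrays at 60 min, against 25.7 to 27.2 in mock. The row for human TLR5 lay between 3.17 and 4.18, and whether it detects the murine receptor was not tested.

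Restriction factors are proteins that cells make to block virus replication, and most are induced by interferon. Type I interferon binds its receptor, and the receptor's kinases JAK1 and TYK2 activate a complex, with IRF9 as a subunit, that binds the interferon-stimulated response element (ISRE) in target promoters. TLR5 signals through MyD88 to NF-kB and MAP kinases and is best known for inducing chemokines and cytokines in epithelial cells. The 10 genes act at different steps. RSAD2 (viperin) makes a chain-terminating nucleotide, and its chromosomal neighbour CMPK2 is a mitochondrial nucleotide kinase. MX1 is a dynamin-like GTPase that blocks virus nucleocapsids, and BST2 (tetherin) holds budding virions at the cell surface. PARP9 and DTX3L form an ADP-ribosyltransferase and ubiquitin ligase complex, and PARP14 is another ADP-ribosyltransferase. EIF2AK2 (PKR) is a kinase that senses double-stranded RNA and stops translation through eIF2 alpha. SAMD9 restricts poxviruses, and XAF1 binds the apoptosis inhibitor XIAP.

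Promoter sequence is shown because 9 of these genes had higher means than mock in the same comparisons. The windows, from RefSeq on GRCh38.p14, run from 250 bases before to 50 bases after an annotated start, and all 10 genes had at least 1 of the 17 windows matched by symbol. The ISRE was searched on both strands as the letters GAAA, any 2 bases, then GAAA again. It occurred in a window of 8 of the 10 genes, that is 80%, against 4.38% of 27305 genes with a window (3.57% of 35116 windows). CMPK2 and XAF1 had no match to these letters in their windows. The stretches below are given 5′ to 3′ on the strand of the gene, with the ISRE match in capitals and 20 flanking bases on each side, ending no more than 30 bases past a start. RSAD2 carries the match on the opposite strand, so its capitals read as the reverse complement. BST2 has 2 overlapping matches, which form 1 run of capitals. They lie at chr21:41420549-41420587 (plus strand) for MX1, chr2:6877612-6877661 (plus) for RSAD2, chr19:17405725-17405780 (minus) for BST2, chr7:93118086-93118135 (minus) for SAMD9, chr3:122680790-122680839 (plus) for PARP14 and chr2:37156957-37157006 (minus) for EIF2AK2.
MX1: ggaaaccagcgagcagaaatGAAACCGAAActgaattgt
RSAD2: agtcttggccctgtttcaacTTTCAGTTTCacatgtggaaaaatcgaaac
BST2: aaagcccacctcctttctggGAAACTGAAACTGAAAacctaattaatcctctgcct
SAMD9: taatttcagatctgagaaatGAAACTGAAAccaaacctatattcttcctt
PARP14: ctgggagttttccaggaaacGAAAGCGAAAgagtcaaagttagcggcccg
EIF2AK2: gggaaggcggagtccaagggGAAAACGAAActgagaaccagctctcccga

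Some neighbouring genes share their promoter sequence. The windows of PARP9 and DTX3L, whose genes run in opposite directions, overlap over 137 bases at chr3:122564251-122564387, and 1 ISRE match at chr3:122564332-122564341 lies in both. It stands at -41 to -32 from the PARP9 start and at -6 to 4 from the DTX3L start, counted with no base 0. The part of it at chr3:122564271-122564367, from 30 bases past one start to 30 bases past the other, is given on the plus strand with that match in capitals, because 1 match lies in the windows of both genes.
PARP9 and DTX3L: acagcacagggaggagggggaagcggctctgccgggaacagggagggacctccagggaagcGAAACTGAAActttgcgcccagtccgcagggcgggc

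The windows at an upstream start of RSAD2 and at a start of CMPK2 also overlap, over 165 bases at chr2:6865770-6865934. That stretch holds no ISRE match and 2 matches to GAAANGAAA, a closer-spaced GAAA pair that was chosen after these sequences were seen. The closer-spaced pair occurred in 6 of the 10 genes (60%), against 3.87% of all genes, a share that describes the sequences it was chosen from. CMPK2 had it only in the stretch shared with RSAD2, which is counted for both genes. The ISRE match shared by PARP9 and DTX3L is likewise counted for both. The GAS motif, TTCNNNGAA, occurred in 3 of the 10 (30%), against 9.38% of all genes. The kB motif, which binds NF-kB, also occurred in 3 of the 10 (30%), against 13.3%. ISRE matches overlapped a GAS match in BST2 and at the third start of MX1, and a closer-spaced pair in MX1, SAMD9 and PARP14, where the pair also overlapped a GAS match. Among 26 other antiviral effectors with a window, 17 (65.4%) had an ISRE match, and 1 of 12 family relatives of the 10 genes (8.33%) had one. A match describes these letters and is no evidence of binding.

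**Figure D1:**
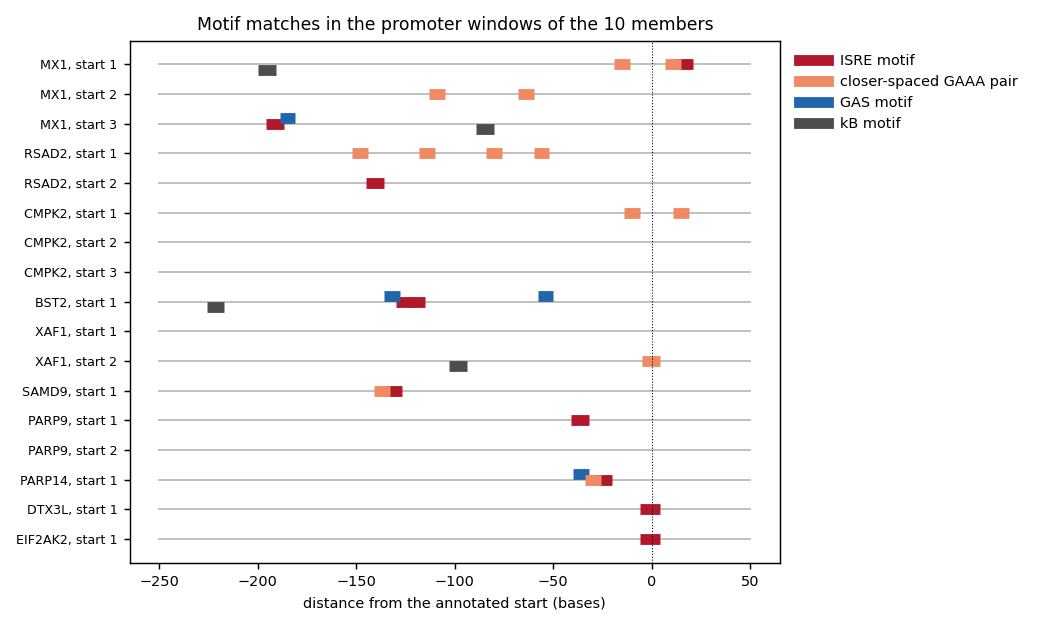
Motif matches in the 17 promoter windows of the 10 genes, by distance in bases from each annotated start (dotted line). Blocks mark the ISRE, the closer-spaced GAAA pair, the GAS motif and the kB motif. ISRE matches appear for 8 of the 10 genes, and none of the windows of CMPK2 or XAF1 has one.

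The first comparison asked which of these transcripts differed from mock after 60 min with flagellin. After ST flagellin RSAD2, DTX3L, PARP9, SAMD9 and BST2 rose, by 1.42-fold to 2.75-fold, and after EcN flagellin RSAD2 and PARP9 rose, by 2.87-fold and 1.73-fold. With ST, 5 of 9 tested members were called higher at a limma adjusted p under 0.05, against 2.23% of all genes tested. With EcN it was 2 of 9, against 3.08%. Both flagellins were set against the same 3 mock arrays at each time. In both comparisons all 9 differences were above 0. XAF1 is counted here although it passed the filter through flagellin arrays alone. Their median was 0.43 with EcN and 0.60 with ST, against 0.01 and 0.00 over all genes.

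RSAD2 (transcript cluster 16876764, chromosome 2) had the largest difference among the 9. At 60 min its level was 2.95, 4.18 and 4.47 on EcN replicates A, B and C and 3.81, 3.67 and 3.93 on the ST replicates, against 2.57, 2.41 and 2.06 in mock. All 6 flagellin arrays lay above all 3 mock arrays, and EcN replicate A lay nearest to them. The difference was 1.52 ± 0.36 with EcN (2.87-fold, limma adjusted p = 0.0278) and 1.46 ± 0.36 with ST (2.75-fold, limma adjusted p = 0.0320).

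Its neighbour CMPK2 (transcript cluster 16894127, chromosome 2) had levels of 2.78, 3.62 and 4.14 on the EcN arrays and 3.32, 3.54 and 3.99 on the ST arrays, against 2.89, 2.70 and 2.80 in mock. The ST arrays lay above the mock arrays, while EcN replicate A lay among them. The difference was 0.71 ± 0.28 with EcN (limma adjusted p = 0.130) and 0.82 ± 0.28 with ST (limma adjusted p = 0.0960), and neither passed the threshold.

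PARP9 was called with both flagellins and its partner DTX3L with ST. PARP9 (transcript cluster 16958124, chromosome 3) had levels of 5.15, 5.54 and 5.72 with EcN and 5.54, 5.42 and 5.50 with ST, against 4.41, 4.56 and 5.08 in mock. No flagellin array reached down into the mock range, although EcN replicate A came close to mock replicate C. PARP9 rose by 0.79 ± 0.21 with EcN (limma adjusted p = 0.0367) and by 0.80 ± 0.21 with ST (limma adjusted p = 0.0376). DTX3L (transcript cluster 16944665, chromosome 3) had levels of 6.01, 6.70 and 6.67 with EcN and 6.85, 7.10 and 7.15 with ST, against 6.14, 6.05 and 5.91 in mock. The ST arrays lay above every EcN and mock array, and EcN replicate A lay inside the mock range. DTX3L rose by 1.00 ± 0.26 with ST (2.0-fold, limma adjusted p = 0.0376), and its difference of 0.43 ± 0.26 with EcN did not pass (limma adjusted p = 0.326). PARP14 (transcript cluster 16944695, chromosome 3) stayed below the array medians, at 1.10 to 1.24 with EcN and 1.28 to 1.43 with ST, against 1.13 to 1.46 in mock. Fitted without the filter, its differences were -0.09 with EcN and 0.11 with ST (limma adjusted p = 0.731 and 0.684).

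SAMD9 (transcript cluster 17059771, chromosome 7) was called with ST. Its level was 6.34, 6.97 and 6.81 with EcN and 6.98, 7.01 and 7.10 with ST, against 6.43, 6.36 and 6.50 in mock. The 3 ST arrays lay within a narrow range above all others, and EcN replicate A lay below the 3 mock arrays. SAMD9 rose by 0.60 ± 0.16 with ST (1.51-fold, limma adjusted p = 0.0376), and its difference was 0.27 ± 0.16 with EcN (limma adjusted p = 0.290). EIF2AK2 (transcript cluster 16896442, chromosome 2) had levels of 8.50, 8.57 and 8.44 with EcN and 8.60, 8.61 and 8.64 with ST, against 8.28, 8.17 and 8.28 in mock. Neither flagellin group overlapped mock, and the differences of 0.26 ± 0.11 and 0.37 ± 0.11 missed the threshold (limma adjusted p = 0.165 with EcN and 0.0619 with ST).

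The remaining factors are BST2 and MX1, which act on budding virions and virus nucleocapsids, and XAF1, which acts in apoptosis. BST2 (transcript cluster 16870200, chromosome 19) had levels of 9.02, 9.02 and 8.92 with EcN and 8.85, 9.13 and 9.27 with ST, against 8.45, 8.71 and 8.59 in mock. Both flagellin groups lay above mock. BST2 rose by 0.50 ± 0.13 with ST (1.42-fold, limma adjusted p = 0.0327), and its difference of 0.40 ± 0.13 with EcN missed the threshold (limma adjusted p = 0.0643). MX1 (transcript cluster 16923031, chromosome 21) had levels of 3.71, 3.89 and 4.14 with EcN and 3.90, 3.83 and 3.95 with ST, against 3.46, 2.99 and 3.44 in mock. These groups did not overlap either, and the differences of 0.62 ± 0.19 with EcN and 0.60 ± 0.19 with ST were not called (limma adjusted p = 0.0565 and 0.0696).

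XAF1 (transcript cluster 16830202, chromosome 17) was near background. It lay above its own array's median on 6 of 18 arrays, all of them flagellin arrays. XAF1 thus passed the filter only through the groups set against mock, so its place above mock is no support for the set. Its level was 2.0, 1.94 and 2.51 with EcN and 2.21, 2.29 and 2.42 with ST, against 2.24, 1.72 and 2.20 in mock, and the groups overlapped. Its differences were 0.10 ± 0.22 with EcN and 0.26 ± 0.22 with ST (limma adjusted p = 0.827 and 0.540).

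At 60 min the groups did not overlap for 5 of the 9 members with EcN, against 16.7% of all genes, and for 8 of the 9 with ST, against 14.2%. All 5 ST calls were lost without mock 60 min A, B or C or ST 60 min B or C, at limma adjusted p from 0.0514 to 0.121, and without ST 60 min A BST2 alone was called. Both EcN calls were lost without mock 60 min B or C or EcN 60 min B or C, at limma adjusted p from 0.0669 to 0.119, and PARP9 also without mock 60 min A (limma adjusted p = 0.0993). MX1 was called with both flagellins without mock 120 min A (limma adjusted p = 0.0165 with EcN and 0.0251 with ST) or C (0.0336 and 0.0432), CMPK2 with both without EcN 60 min A (0.0463 and 0.0481), and EIF2AK2 with ST without ST 120 min C (0.0357). With all 5 arrays of high NFKBIA left out, none of the 9 was called at 60 min. RSAD2 then differed by 1.22 with EcN and 1.40 with ST (limma adjusted p = 0.0501 and 0.0532), and DTX3L by 0.94 with ST (limma adjusted p = 0.104).

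**Figure D2:**
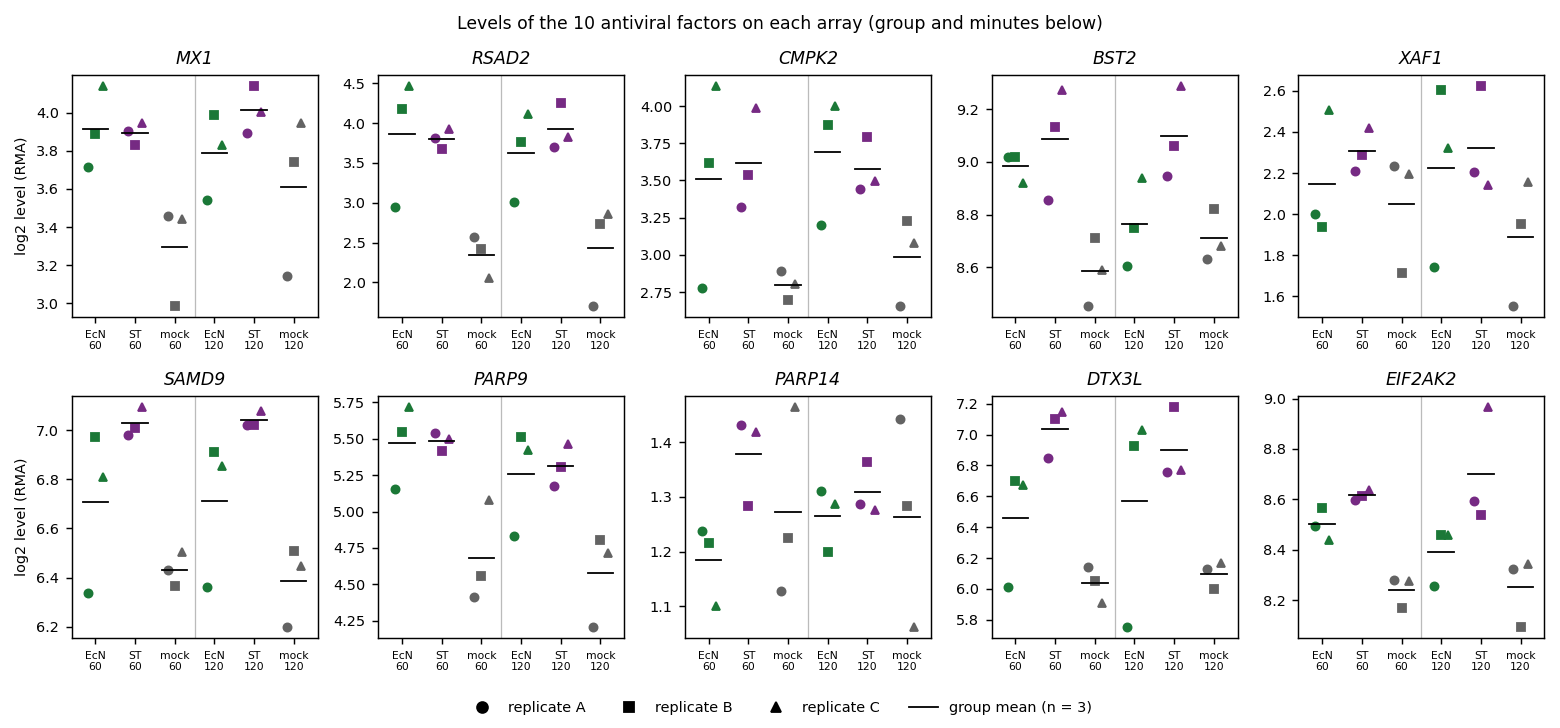
Log2 level of each of the 10 genes on every array, with EcN (green), ST (purple) and mock (grey) at 60 min left of the line and at 120 min right of it. Circles, squares and triangles are replicates A, B and C, bars are means of 3 arrays, and each panel has its own axis. RSAD2 and PARP9 have all flagellin arrays above the mock arrays of the same time, EcN replicate A is low for SAMD9 and DTX3L, and PARP14 shows no separation.

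The same contrasts at 120 min asked whether the differences from mock were still present. No member was called with either flagellin by limma. The called share of all genes was also small, 0.0248% higher with EcN and 0.31% higher with ST. An unadjusted p under 0.05 was found for 3 of 9 members with EcN and 7 of 9 with ST, each above mock. At that looser threshold, 1327 of the 16111 tested genes lay above mock and 1334 below it with EcN. For ST these counts were 1448 and 1380. All 9 differences, that of XAF1 included, were again above 0, with a median of 0.34 with EcN and 0.59 with ST, against 0.00 and -0.00 over all genes. The groups did not overlap for 2 of 9 members with EcN, against 8.52% of all genes, and for 7 of 9 with ST, against 8.81%.

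RSAD2 at 120 min had levels of 3.01, 3.77 and 4.11 with EcN and 3.70, 4.25 and 3.83 with ST, against 1.70, 2.74 and 2.85 in mock. Mock replicate A was the lowest of the 18 arrays for this gene, and no flagellin array overlapped mock. The difference was 1.20 ± 0.36 with EcN (limma adjusted p = 0.123) and 1.50 ± 0.36 with ST (limma adjusted p = 0.0733). Without mock 120 min C, RSAD2 was called with EcN (1.41, limma adjusted p = 0.0470) and with ST (1.71, limma adjusted p = 0.0310). CMPK2 had levels of 3.20, 3.87 and 4.0 with EcN and 3.44, 3.79 and 3.50 with ST, against 2.66, 3.23 and 3.08 in mock. The ST arrays lay above mock, and EcN replicate A lay just inside the mock range. Its differences were 0.70 ± 0.28 and 0.59 ± 0.28 (limma adjusted p = 0.221 with EcN and 0.291 with ST).

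PARP9 at 120 min had levels of 4.83, 5.51 and 5.42 with EcN and 5.17, 5.31 and 5.46 with ST, against 4.21, 4.80 and 4.71 in mock. EcN replicate A lay only just above mock. Its differences were 0.68 ± 0.21 with EcN and 0.74 ± 0.21 with ST (limma adjusted p = 0.127 and 0.0991). DTX3L had levels of 5.75, 6.93 and 7.03 with EcN and 6.76, 7.18 and 6.77 with ST, against 6.13, 6.0 and 6.17 in mock. EcN replicate A was the lowest of all 18 arrays for DTX3L, while EcN replicates B and C lay within the range of the ST arrays. The differences were 0.47 ± 0.26 with EcN and 0.80 ± 0.26 with ST (limma adjusted p = 0.376 and 0.134).

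SAMD9 at 120 min had levels of 6.36, 6.91 and 6.85 with EcN and 7.02, 7.02 and 7.08 with ST, against 6.20, 6.51 and 6.45 in mock. EcN replicate A lay among the mock arrays, and the ST arrays lay above all others of this time. The differences were 0.33 ± 0.16 with EcN and 0.66 ± 0.16 with ST (limma adjusted p = 0.308 and 0.0660). EIF2AK2 had levels of 8.26, 8.46 and 8.46 with EcN and 8.59, 8.54 and 8.97 with ST, against 8.32, 8.09 and 8.34 in mock. ST replicate C was the highest array for EIF2AK2, and EcN replicate A lay inside the mock range. The differences were 0.14 ± 0.11 with EcN and 0.45 ± 0.11 with ST (limma adjusted p = 0.575 and 0.0806). Without mock 120 min C, SAMD9 and EIF2AK2 were called with ST (limma adjusted p = 0.0429 and 0.0401). EIF2AK2 was also called with ST without mock 120 min A (limma adjusted p = 0.0378). RSAD2 and SAMD9 were called with ST without EcN 60 min A (limma adjusted p = 0.0418 and 0.0423), and SAMD9 without EcN 120 min A (limma adjusted p = 0.0496).

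BST2 at 120 min had levels of 8.60, 8.75 and 8.94 with EcN and 8.95, 9.06 and 9.29 with ST, against 8.63, 8.82 and 8.68 in mock. The ST arrays lay above mock, whereas the EcN arrays spread through it. Its differences were 0.05 ± 0.13 with EcN and 0.39 ± 0.13 with ST (limma adjusted p = 0.871 and 0.133). MX1 had levels of 3.54, 3.99 and 3.83 with EcN and 3.89, 4.14 and 4.0 with ST, against 3.14, 3.74 and 3.94 in mock, where replicates B and C were higher than any mock array at 60 min. Both flagellin groups overlapped mock. Its differences were 0.18 ± 0.19 with EcN and 0.40 ± 0.19 with ST (limma adjusted p = 0.674 and 0.276). XAF1 had levels of 1.74, 2.60 and 2.32 with EcN and 2.21, 2.63 and 2.14 with ST, against 1.55, 1.95 and 2.16 in mock, and both flagellin groups overlapped mock. Its differences were 0.34 ± 0.22 with EcN and 0.44 ± 0.22 with ST (limma adjusted p = 0.477 and 0.330). PARP14 differed from mock by 0.00 with EcN and 0.05 with ST when fitted without the filter (limma adjusted p = 0.996 and 0.904).

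Without mock 120 min A, 7 of the 9 differences were smaller with each flagellin, and those of DTX3L and EIF2AK2 were larger. RSAD2 then differed by 0.83 with EcN and 1.13 with ST (limma adjusted p = 0.277 and 0.0808), PARP9 by 0.50 and 0.56 (limma adjusted p = 0.277 and 0.141), and MX1 by -0.06 with EcN and 0.17 with ST (limma adjusted p = 0.907 and 0.600). SAMD9 differed by 0.23 with EcN and 0.56 with ST (limma adjusted p = 0.542 and 0.0637). With EcN and ST, CMPK2 differed by 0.54 and 0.42 (limma adjusted p = 0.426 and 0.462) and BST2 by 0.01 and 0.35 (0.973 and 0.155). XAF1 differed by 0.17 and 0.27 (limma adjusted p = 0.783 and 0.554), DTX3L by 0.49 and 0.82 (0.459 and 0.120) and EIF2AK2 by 0.17 and 0.48 (0.540 and 0.0378).

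**Figure D3:**
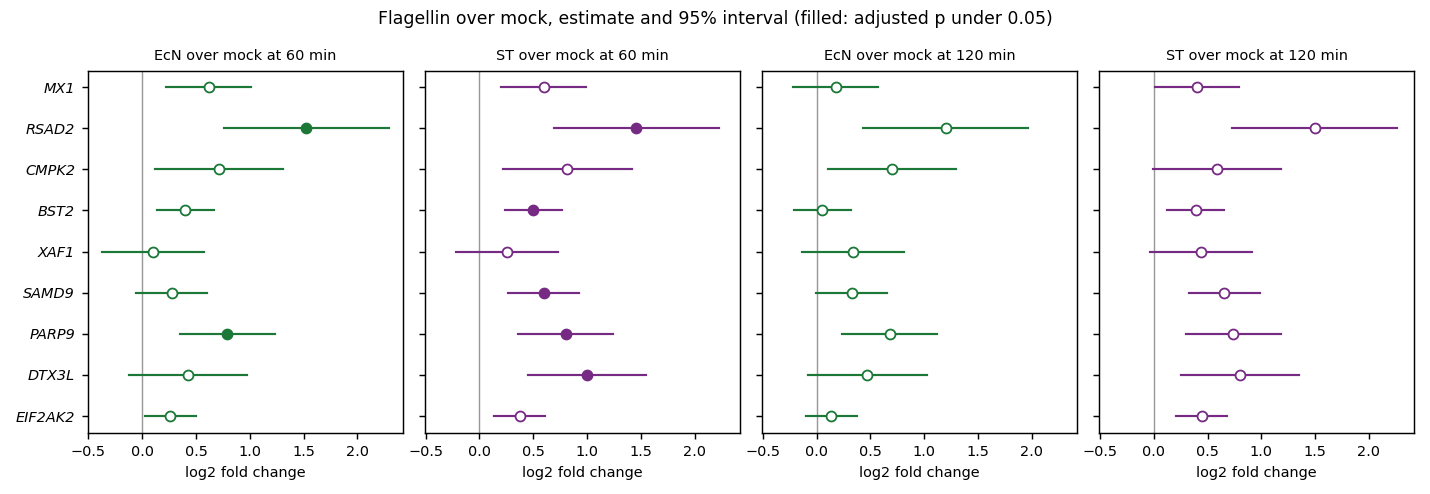
Log2 fold change over mock of the 9 tested members in each of 4 comparisons, with 95% intervals from limma. Filled points have an adjusted p under 0.05, which are 2 with EcN at 60 min, 5 with ST at 60 min and none at 120 min, and every point lies right of 0.

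The difference between 120 and 60 min was tested within each treatment. It ran over the 9 members from -0.24 to 0.18 with EcN, from -0.17 to 0.12 with ST and from -0.16 to 0.31 in mock, where MX1 was highest (0.31 ± 0.19, limma adjusted p = 0.518). No member was called and none had an unadjusted p under 0.05. No gene at all was called by limma (0%), while at an unadjusted p under 0.05 the higher and lower genes numbered 610 and 671 with EcN, 330 and 443 with ST and 962 and 988 in mock. The change of the effect over mock between the times was also called for no gene (0%), with 958 and 978 genes at an unadjusted p under 0.05 with EcN and 879 and 852 with ST. It was lowest for MX1 with EcN, at -0.44 (95% interval -0.995 to 0.12), and the intervals for RSAD2 ran from -1.41 to 0.76 with EcN and from -1.05 to 1.12 with ST. These counts over all genes rested on 1 array. Without mock 120 min A, 979 genes were called between the times in mock, and the change of the effect was called for 556 genes with EcN (334 lower) and 475 with ST (295 lower). Without all 5 arrays of high NFKBIA they were 809, 213 and 106. No member was called in any of these fits, and MX1 in mock was then 0.55 higher at 120 min (limma adjusted p = 0.0642 without mock 120 min A). With 1 array left out, up to 5 of the other antiviral effectors and 2 of the interferon transcription factors described further on were called higher in mock at 120 min. A call at 60 min and none at 120 min was therefore not shown to be a difference between the times.

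A further comparison set ST flagellin against EcN flagellin. No gene was called at either time by limma (0%). Without adjustment p was under 0.05 for 670 genes above and 811 below EcN at 60 min, and for 854 above and 1028 below at 120 min. Without mock 120 min A, 9 genes were called at 120 min, none of them a member. Among the members an unadjusted p under 0.05 was found for 1 at 60 min, DTX3L, which was 0.57 higher with ST (95% interval 0.02 to 1.12, limma adjusted p = 0.522). At 120 min it was 3, all higher with ST: BST2 by 0.34 (95% interval 0.07 to 0.60), SAMD9 by 0.33 (0.00 to 0.66) and EIF2AK2 by 0.31 (0.07 to 0.55), at limma adjusted p of 0.327, 0.424 and 0.318. The ST arrays lay above all EcN arrays for SAMD9, DTX3L and EIF2AK2 at 60 min, which is 3 of 9 members against 8.14% of all genes. At 120 min they did so for BST2, SAMD9 and EIF2AK2, again 3 of 9, against 10.5%. RSAD2 differed by -0.06 at 60 min, with an interval of -0.83 to 0.70, and by 0.30 at 120 min, with an interval of -0.47 to 1.06.

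For the 9 tested members, though not for PARP14, the 6 group means split by treatment, for some of them within the spread. Their full order differed. The highest mean was with ST at 120 min for MX1, EcN at 120 min for CMPK2 and ST at 60 min for PARP9. The mock mean at 120 min lay above that at 60 min for MX1 and below it for SAMD9. For all 9 tested members the 4 flagellin means lay above both mock means, with XAF1 tested through its flagellin arrays alone. How many of all genes show this split was not counted, so it is given as a description only. For MX1 it rested on mock 120 min A, without which EcN differed from mock by -0.06 at 120 min. The gap between the lowest flagellin mean and the higher mock mean was beyond the pooled SD of those neighbours for RSAD2 (1.20), PARP9 (0.57), DTX3L (0.36), SAMD9 (0.27) and EIF2AK2 (0.14). This gap was within that SD for MX1, CMPK2, BST2 and XAF1. For DTX3L, SAMD9 and EIF2AK2, EcN replicate A in the lowest flagellin group still lay inside or below the range of that mock group. The share of all genes with such a gap was not counted. SAMD9 averaged 7.03 ± 0.06 with ST at 60 min and 7.04 ± 0.03 with ST at 120 min (SD, n = 3 each), against 6.71 ± 0.33 and 6.71 ± 0.30 with EcN. Its ST mean at 60 min exceeded the EcN mean at 120 min by 0.32, against a pooled SD of 0.22 for those groups. EcN replicate A was low at both times, and ST over EcN was not called for SAMD9 (limma adjusted p = 0.546 at 60 min and 0.424 at 120 min). For PARP14 the order did not follow treatment.

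The EcN replicates were not alike. Each member was centred on its own mean over 18 arrays, and the 9 were then averaged per array. This mean was -0.20, 0.24 and 0.39 on EcN replicates A, B and C at 60 min and 0.20, 0.26 and 0.41 on the ST replicates, against -0.38, -0.51 and -0.38 in mock. At 120 min it was -0.33, 0.28 and 0.30 with EcN and 0.16, 0.40 and 0.30 with ST, against -0.64, -0.27 and -0.21 in mock. Both EcN replicates A thus lay near the mock arrays, the one at 120 min below mock replicates B and C, while all other flagellin arrays lay above 0. EcN 60 min A exceeded the 3 mock arrays of its time for 5 of 9 members, against 34.4% of all genes, and EcN 120 min A for 2 of 9, RSAD2 and PARP9, against 24%. EcN 60 min B and C did so for 8 and 9 members, against 32.1% and 32.3% of all genes, and EcN 120 min B and C for 8 each, against 26.2% and 22.5%. ST replicates A, B and C did so for 8, 9 and 9 at 60 min, against 33.8%, 31% and 27.8%, and for 8, 9 and 8 at 120 min, against 24.7%, 25.4% and 25.3%. These means and counts include XAF1, which was tested through flagellin arrays alone.

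High NFKBIA did not go with high members on every array. Of the 5 arrays with high NFKBIA, 4 were flagellin arrays with member means of 0.30 to 0.41, and the remaining one, mock 120 min A, had the lowest member mean of all 18 arrays, -0.64. The 4 ST arrays lettered A or B and the EcN replicates B, with NFKBIA at 8.17 to 8.43, had member means of 0.16 to 0.40. What sets the 5 arrays apart, an exchange of samples included, was not tested.

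**Figure D4:**
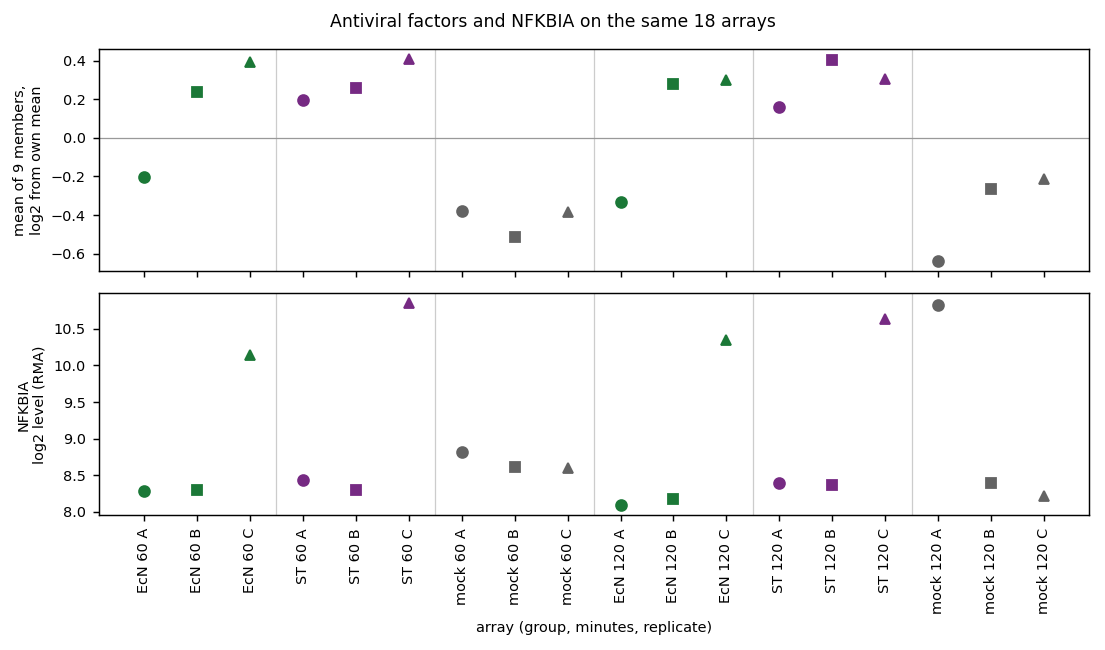
Mean of the 9 tested members on each array, in log2 units from each member's own mean (top), and the log2 level of NFKBIA on the same array (bottom). Colours and symbols mark group and replicate. NFKBIA is high on the 4 flagellin arrays lettered C and on mock 120 min A, and that mock array has the lowest member mean.

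Most members varied together within groups as well as between them. Over the 18 arrays, which share groups and processing, the correlation of a member with the mean of the other 8 was 0.93 for RSAD2 and 0.70 for EIF2AK2, the highest and lowest values. With group means removed it was 0.89 for CMPK2, 0.88 for SAMD9 and 0.84 for RSAD2, but 0.30 for BST2 and 0.14 for EIF2AK2. These are descriptions over arrays of the same groups and carry no test. EcN 60 min A, EcN 120 min A and mock 120 min A had the lowest member means of their groups (-0.20, -0.33 and -0.64). The correlations were not repeated without these arrays. Outside the members, the genes whose level over the 18 arrays was most like the mean of the 9 were OAS1, OAS3 and IFI35 (0.96 each), then IFIT1, RIGI, ISG15 and OAS2 (0.94 each), and IFI6, IFI44 and IFI44L (0.93 each). With group means removed, IFI35, OAS1 and OAS3 remained the first 3 (0.92 each). IFIT1 then stood at place 11, IFI44L at 17 and OAS2 at 24. PROKR2 (0.86), SSBP3-AS1 and STC1 (0.85 each) entered the first 10. OAS1, OAS3 and OAS2 make the oligoadenylate that activates RNase L, RIGI is a sensor of viral RNA, and ISG15 is a ubiquitin-like modifier.

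Companion lists give the setting, and all were chosen with earlier results of these data known. The closest relatives were 17 genes of the same families, of which 15 were tested. Of these, 2 rose with EcN at 60 min and 3 with ST, with list medians of 0.12 and 0.05. PARP12, an antiviral member of the ADP-ribosyltransferase family, rose by 0.97 ± 0.19 with EcN and 1.25 ± 0.19 with ST (limma adjusted p = 0.0187 and 0.00608). SAMD9L, the paralogue of SAMD9, rose by 0.85 ± 0.22 with EcN and 1.18 ± 0.22 with ST (limma adjusted p = 0.0346 and 0.0137). XIAP, the partner of XAF1, rose by 0.45 ± 0.12 with ST (limma adjusted p = 0.0443). MX2, the paralogue of MX1, differed by 0.27 ± 0.21 and 0.59 ± 0.21 (limma adjusted p = 0.474 with EcN and 0.112 with ST). None of the 15 was called at 120 min by limma, where 5 with each flagellin had higher values and 1 with ST a lower one at unadjusted p under 0.05. Without mock 60 min B or C or EcN 60 min B or C, none was called with EcN at 60 min, and without mock 60 min A 1 was. With ST 1 was called at 60 min without mock 60 min C, and 1 at 120 min without mock 120 min C or EcN 60 min A.

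Among other antiviral effectors, 35 of 40 listed genes were tested. At 60 min 14 rose with EcN and 16 with ST, none fell, and the medians were 0.42 and 0.49. IFI44L rose by 2.86 ± 0.53 with EcN and 3.59 ± 0.53 with ST (limma adjusted p = 0.0186 and 0.00551), and IFIT3, which binds foreign RNA with its partners, by 2.55 ± 0.57 and 3.17 ± 0.57 (limma adjusted p = 0.0246 and 0.0120). OAS1 rose by 2.53 ± 0.46 with ST (limma adjusted p = 0.0126). At 120 min 7 rose with ST and none was called with EcN by limma, where an unadjusted p was under 0.05 for 14 above and 2 below mock. The 7 were ISG15, OAS1, OAS2, IFIT5, SAMHD1, HERC6 and IFI6, with ISG15 up by 2.50 ± 0.41 (limma adjusted p = 0.0331). The EcN count at 60 min was 0 without mock 60 min B, mock 60 min C or EcN 60 min B and 1 without EcN 60 min C. The ST count at 60 min was 9 without mock 60 min B and 10 without mock 60 min C or any of ST 60 min A, B and C. At 120 min the ST count was 0 without mock 120 min B, EcN 120 min B or any ST 120 min array, 3 without EcN 60 min C, EcN 120 min C, mock 60 min B or any ST 60 min array, and 4 without mock 60 min A or C. The EcN count at 120 min was 4 without mock 120 min C, 3 of them higher. Without all 5 arrays of high NFKBIA the counts were 7 with EcN and 11 with ST at 60 min and 0 with ST at 120 min.

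In the interferon pathway above these genes, IRF9 and IRF7 rose, while none of the 12 ligands, receptors and kinases tested was called higher. Listed genes of the pathway that were not tested had no comparison with mock. Of 8 listed transcription factors 6 were tested. IRF9, the DNA-binding subunit of the complex that binds the ISRE, rose at 60 min by 1.08 ± 0.21 with EcN and 1.59 ± 0.21 with ST (limma adjusted p = 0.0186 and 0.00532). IRF7, which amplifies interferon expression, rose with ST by 1.29 ± 0.23 at 60 min and 1.42 ± 0.23 at 120 min (limma adjusted p = 0.0124 and 0.0331). The EcN call at 60 min was lost without mock 60 min B or C or EcN 60 min B or C and became 2 without mock 120 min A, and 1 of the 2 ST calls at 60 min was lost without ST 60 min C. The ST call at 120 min was lost without mock 120 min B, EcN 120 min B or any ST 120 min array, and became 2 without mock 120 min A or C. Of 19 ligands, receptors and kinases 12 were tested, and 1 in each comparison at 60 min was called, both lower: IFNAR1, a chain of the type I interferon receptor, by -0.44 ± 0.10 with EcN (limma adjusted p = 0.0250) and the kinase JAK2 by -0.40 ± 0.11 with ST (limma adjusted p = 0.0496). Without any of the mock 60 min or EcN 60 min arrays the EcN count was 0, and it was 3 without mock 120 min A and 2 without mock 120 min C. The ST count was 1 without mock 60 min A or mock 120 min B, 2 without mock 120 min A or C and 0 without any other array, and without mock 120 min C 1 was called lower with EcN at 120 min.

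The 8 negative regulators of the pathway were all tested. With EcN at 60 min SOCS3 and PIAS1 fell, by -0.53 ± 0.14 and -0.47 ± 0.12 (limma adjusted p = 0.0404 and 0.0300), and with ST PIAS1 fell by -0.57 ± 0.12 (limma adjusted p = 0.0171). USP18, an interferon-induced inhibitor of the receptor, differed by 0.27 ± 0.11 with ST at 60 min (limma adjusted p = 0.168). The EcN count at 60 min was 0 without mock 60 min B or C or EcN 60 min B or C, and 1 without mock 60 min A, EcN 60 min A, any EcN 120 min array or ST 60 min B. The ST count was 0 without mock 60 min B or C or ST 60 min A or B, and without mock 120 min A 2 were called higher with ST at 120 min.

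Of 10 listed genes of eIF2 alpha signalling, which include regulators of EIF2AK2 as well as genes downstream of it, 9 were tested. One was called, DNAJC3, an inhibitor of EIF2AK2, which rose by 0.84 ± 0.17 with ST at 120 min (limma adjusted p = 0.0449). The count remained 1 without mock 60 min A, mock 120 min A or C or EcN 120 min A and was 0 without any other array. One was called without mock 120 min A or EcN 120 min A with ST at 60 min, and 1 without mock 120 min C with EcN at 120 min. The stress phosphatase subunit PPP1R15A differed by 0.44 ± 0.49 with EcN and 0.95 ± 0.49 with ST at 60 min (limma adjusted p = 0.618 and 0.266). Its level was then 8.64 on EcN replicate C and 9.72 on ST replicate C. It was 7.52 to 7.98 on the flagellin replicates A and B and 7.35 to 7.73 in mock. Mock 120 min A, also with high NFKBIA, had 8.72.

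**Figure D5:**
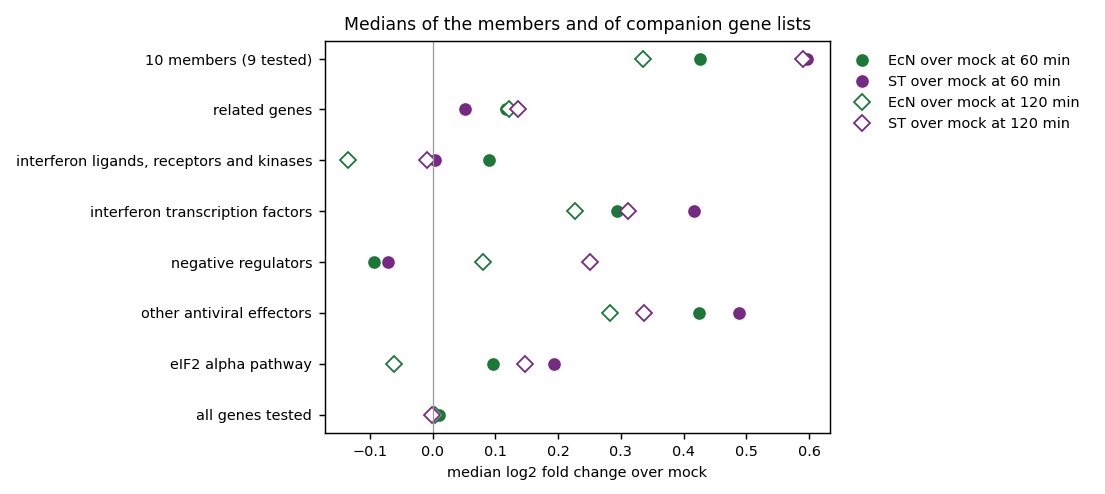
Median log2 fold change over mock of the 9 tested members, of 6 companion gene lists and of all 16111 genes tested, with EcN in green and ST in purple, filled at 60 min and open at 120 min. The medians of the members run from 0.34 to 0.60 and those of the other effectors from 0.28 to 0.49, while the medians of all genes lie at 0.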

How the data were processed

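The authors deposited log2 expression values; per the submitters' processing notes they used RMA from oligo 1.30.0. The deposited table holds 53617 rows (transcript clusters) for 18 arrays, with array medians of 2.27 to 2.32, and the values were used without further normalization. For the build and annotation behind the rows, none was given in the sources used here. Rows were named from the platform annotation, of which 23871 had 1 symbol, 1842 several and 27904 none, and 655 symbols were updated through the RefSeq gene table.

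A row with 1 symbol was kept if 3 or more of 18 arrays had it above their own median, and the row with the highest mean stood for its gene, which left 16111 genes. Limma 3.58.1 in R 4.3.3 was fitted (lmFit, eBayes) with 6 group means over all 18 arrays, with 12 residual and 4.20 prior degrees of freedom, in 11 comparisons. P-values are two-sided and adjusted by Benjamini-Hochberg over all genes tested, with calls at an adjusted p under 0.05. The fit was tested on simulated data. The letters A, B and C were checked as pairs, by the correlation of same-letter arrays in their deviations from group means. It was 0.05 to 0.27 between flagellin groups and -0.24 to 0.10 in comparisons with a mock group. In no comparison was every pair over 0.1, so no pairing was used in the main fit. The members, the companion lists and the alternatives were chosen with earlier results of these data known. All members are named, and from each companion list any called gene and up to 4 by absolute log2 fold change. Each comparison was repeated under 29 alternative settings, 18 of which leave out 1 array. RefSeq promoter windows come from GRCh38.p14.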

Additional observations from a re-analysis of the deposited data

How the results depend on the processing

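Over 29 alternatives, 2773 of 2860 member values kept their side of the threshold, 54 lost it, 33 gained it and none of the called values changed sign, while 131 values that were never called did. The count of called members with EcN at 60 min (2) was 1 when only the compared groups were fitted, 4 with array weights, 0 without the 5 arrays of high NFKBIA, 0 without the 6 arrays lettered C, and 0 to 3 with 1 array left out. With ST at 60 min (5) it was 8 with array weights, 0 without those 5 arrays, 0 without the arrays lettered C, and 0 to 6 with 1 array left out. With EcN at 120 min (0) it was 0 to 1 with 1 array left out. With ST at 120 min (0) it was 3 with a trended robust prior and 0 to 3 with 1 array left out. The replicate block gave 3 (RSAD2, SAMD9 and PARP9) with ST at 120 min, 3 with EcN at 60 min and 6 with ST at 60 min. Beyond biological replicate, the labels do not say what arrays of 1 letter share. The 4 flagellin arrays lettered C had high NFKBIA, and both EcN replicates A had low member means. Every array correlated best with its own letter in ST over EcN at 60 min and in EcN 120 over 60 min alone. The cause of these shifts was not tested. Over all genes, 1039 calls with EcN at 60 min became 2176 with array weights, 14 without the arrays lettered C and 0 without EcN 60 min B, and 848 with ST became 1957, 32 and, without the 5 arrays, 335. At 120 min, 10 calls with EcN (4 higher) became 21 (14 higher) after repeated quantile normalization and 214 with the trended prior, and 90 with ST became 298 with the trended prior and 38 without the filter. Single arrays moved these counts further. EcN at 120 min had 1177 calls without mock 120 min C, 38 without mock 120 min A, and 0 without mock 60 min B, mock 120 min B, EcN 120 min B, EcN 120 min C or ST 120 min B. ST at 120 min had 905 without mock 120 min A, 715 without mock 120 min C, 1 without EcN 120 min B, and 0 without mock 120 min B or any ST 120 min array. In the stricter filter XAF1 was not tested.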
